A study of Mus musculus with 2 samples.

Results

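TNF, the lymphotoxins, the TNF receptors, and the genes that restrain NF-κB were followed across the kidney immune cells of mice with nephrotoxic serum nephritis (NTN), a model of acute glomerular injury. The 9 genes are Tnf, Lta, and Ltb (ligands), Tnfrsf1a and Tnfrsf1b (receptors), and Nfkbia, Nfkbiz, Nfkbid, and Tnfaip3 (inhibitors and regulators of NF-κB). They were listed by name, with earlier results of these data known, and all 9 are among the 20299 genes of the deposited matrix. Single-cell RNA sequencing in droplets (10× Genomics 3′ chemistry, version 3.1) covered 1 WT library and 1 Vsir-/- library, so no test between the genotypes was possible. Vsir encodes VISTA, an inhibitory immune checkpoint. Both groups were 8-week-old C57BL/6 mice that had been immunized with 200 μg of sheep IgG in Freund's complete adjuvant and, 4 days later, received a sheep serum against the glomerulus at 2 μL/g by the labels, whereas the study's methods state a higher dose. Liberase at 0.2 mg/mL was used to free the cells, with 30 minutes of digestion at 37°C in both groups. The WT library is labelled as sorted CD45+ cells and the Vsir-/- library as kidney cells of every kind, whereas the study's methods state a CD45+ sort, and the sources used here do not give the number of mice in a library.

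The WT library held 5470 cells and 32799550 unique molecular identifiers (UMIs), and the Vsir-/- library held 1844 cells and 18601189 UMIs, with 5 cell barcodes in common. Vsir itself had 4278 UMIs in the WT library and 8 in the Vsir-/- library. The authors named 16 clusters, among them kidney-resident macrophages (R1), infiltrating macrophages (M2-like R2 and other R2), gamma delta T cells (gdT), and T cells with or without an effector memory-like (EM-like) state. Genotypes were compared in the 13 clusters with at least 20 cells in both libraries. In the CD4+ non-EM-like, proliferating, and B cell clusters, many Vsir-/- cells lacked T or B cell transcripts. No UMI of 6 T cell receptor and CD3 genes was found in 233 of 349 Vsir-/- cells of the CD4+ non-EM-like cluster and in 123 of 189 of the proliferating cluster. In the B cell cluster, only 45 of 88 Vsir-/- cells had a B cell transcript, against 969 of 969 WT cells. The EM-like clusters were mixed as well. In the one named CD4+, a Cd4 UMI with no Cd8a or Cd8b1 UMI was seen in 92 WT and 76 Vsir-/- cells, and the reverse in 93 and 40. Transcripts of 4 NK genes summed to 1212 CPM in WT and 385 CPM in Vsir-/- there, and to 2448 and 398 CPM in the CD8+ EM-like cluster, where Cd4 had 7.29 and 90.3 CPM. Transcripts of 15 kidney tubule genes summed to 0.673-24.5 CPM in the WT clusters and to 1171-12957 CPM in the Vsir-/- clusters. In the opposite direction, B cell transcripts were lower in all 13 Vsir-/- clusters. The sort, the genotype, and the library cannot be told apart. Levels are UMIs per 1000000 UMIs of the same cells (CPM) with 95% Poisson intervals, and ratios are log2 of Vsir-/- over WT with exact conditional intervals. All intervals cover counting error only, not the spread between mice.

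TNF is a cytokine that macrophages, neutrophils, and T cells release at sites of injury. It binds TNFR1 (Tnfrsf1a), which most cell types carry, and TNFR2 (Tnfrsf1b), which is found mainly on immune and endothelial cells, and both lead to activation of NF-κB. Lymphotoxin alpha (Lta) acts on the same receptors as a soluble trimer and, joined to lymphotoxin beta (Ltb) on the cell surface, on the lymphotoxin beta receptor. IκBα (Nfkbia) holds NF-κB in the cytoplasm, IκBζ (Nfkbiz) and IκBNS (Nfkbid) act on it in the nucleus, and A20 (Tnfaip3) edits ubiquitin on the receptor complex. These genes of IκB proteins and A20 are themselves induced by NF-κB, so their transcripts are a common readout of recent pathway activity. For Nfkbia and Tnfaip3, this induction closes a negative feedback loop.

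Promoter sequences were taken from RefSeq (GRCm38.p6) for 8 of the 9 genes, with 11 promoters in all. The submitters' processing notes name mm9, and the deposited matrix has no coordinates, so the sequences were matched by gene symbol alone. Those of 3 genes are shown, the feedback genes with the largest ratios in T cells and the ligand with the widest spread of ratios. Each run gives the 250 bases before the annotated start on the strand of the gene, and capitals mark matches to a 10-base NF-κB consensus on either strand.
Nfkbia, chr12:55492648-55492897, minus strand: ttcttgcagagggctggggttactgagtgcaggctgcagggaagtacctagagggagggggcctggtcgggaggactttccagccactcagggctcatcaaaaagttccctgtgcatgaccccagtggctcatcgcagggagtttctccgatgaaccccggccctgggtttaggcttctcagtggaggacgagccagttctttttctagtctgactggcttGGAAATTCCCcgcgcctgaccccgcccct
Tnfaip3, chr10:19015411-19015660, minus strand: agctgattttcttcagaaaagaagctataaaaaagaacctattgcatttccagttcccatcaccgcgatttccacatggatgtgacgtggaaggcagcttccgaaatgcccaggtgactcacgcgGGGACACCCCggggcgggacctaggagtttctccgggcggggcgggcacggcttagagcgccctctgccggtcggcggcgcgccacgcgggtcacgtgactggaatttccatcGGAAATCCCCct
Ltb, chr17:35194257-35194506, plus strand: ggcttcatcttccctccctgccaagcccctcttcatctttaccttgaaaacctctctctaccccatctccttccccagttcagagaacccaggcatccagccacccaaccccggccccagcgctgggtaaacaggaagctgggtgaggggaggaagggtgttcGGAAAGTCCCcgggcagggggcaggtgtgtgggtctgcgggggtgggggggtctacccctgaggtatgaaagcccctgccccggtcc
The Nfkbia promoter had 1 match, beginning at position -29 from the start, and the Tnfaip3 promoter shown had 2, at -125 and -12, whereas the other of its 2 annotated promoters had no match to any motif searched. The promoter shown also held 1 match to the AP-1 motif TGANTCA. The Ltb promoter had 1 NF-κB match, at -87. A strict form of the consensus, with G in its first 3 positions, occurs in 3.90% of 32851 mouse promoters of this length and at least 2 times in 0.493%, and the relaxed form that set the capitals occurs in 9.55%. AP-1 matches occur in 6.75%. Of 3 Nfkbid promoters, 1 had 3 relaxed matches, the Lta promoter had 1 relaxed match and no strict one, and the windows before Tnf, Tnfrsf1a, and Tnfrsf1b had none of these letters. Ltb, Tnf, and Lta lie side by side on chromosome 17, with 7500 bases between the starts of Ltb and Tnf and 3344 between those of Tnf and Lta.

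**Figure D1:**
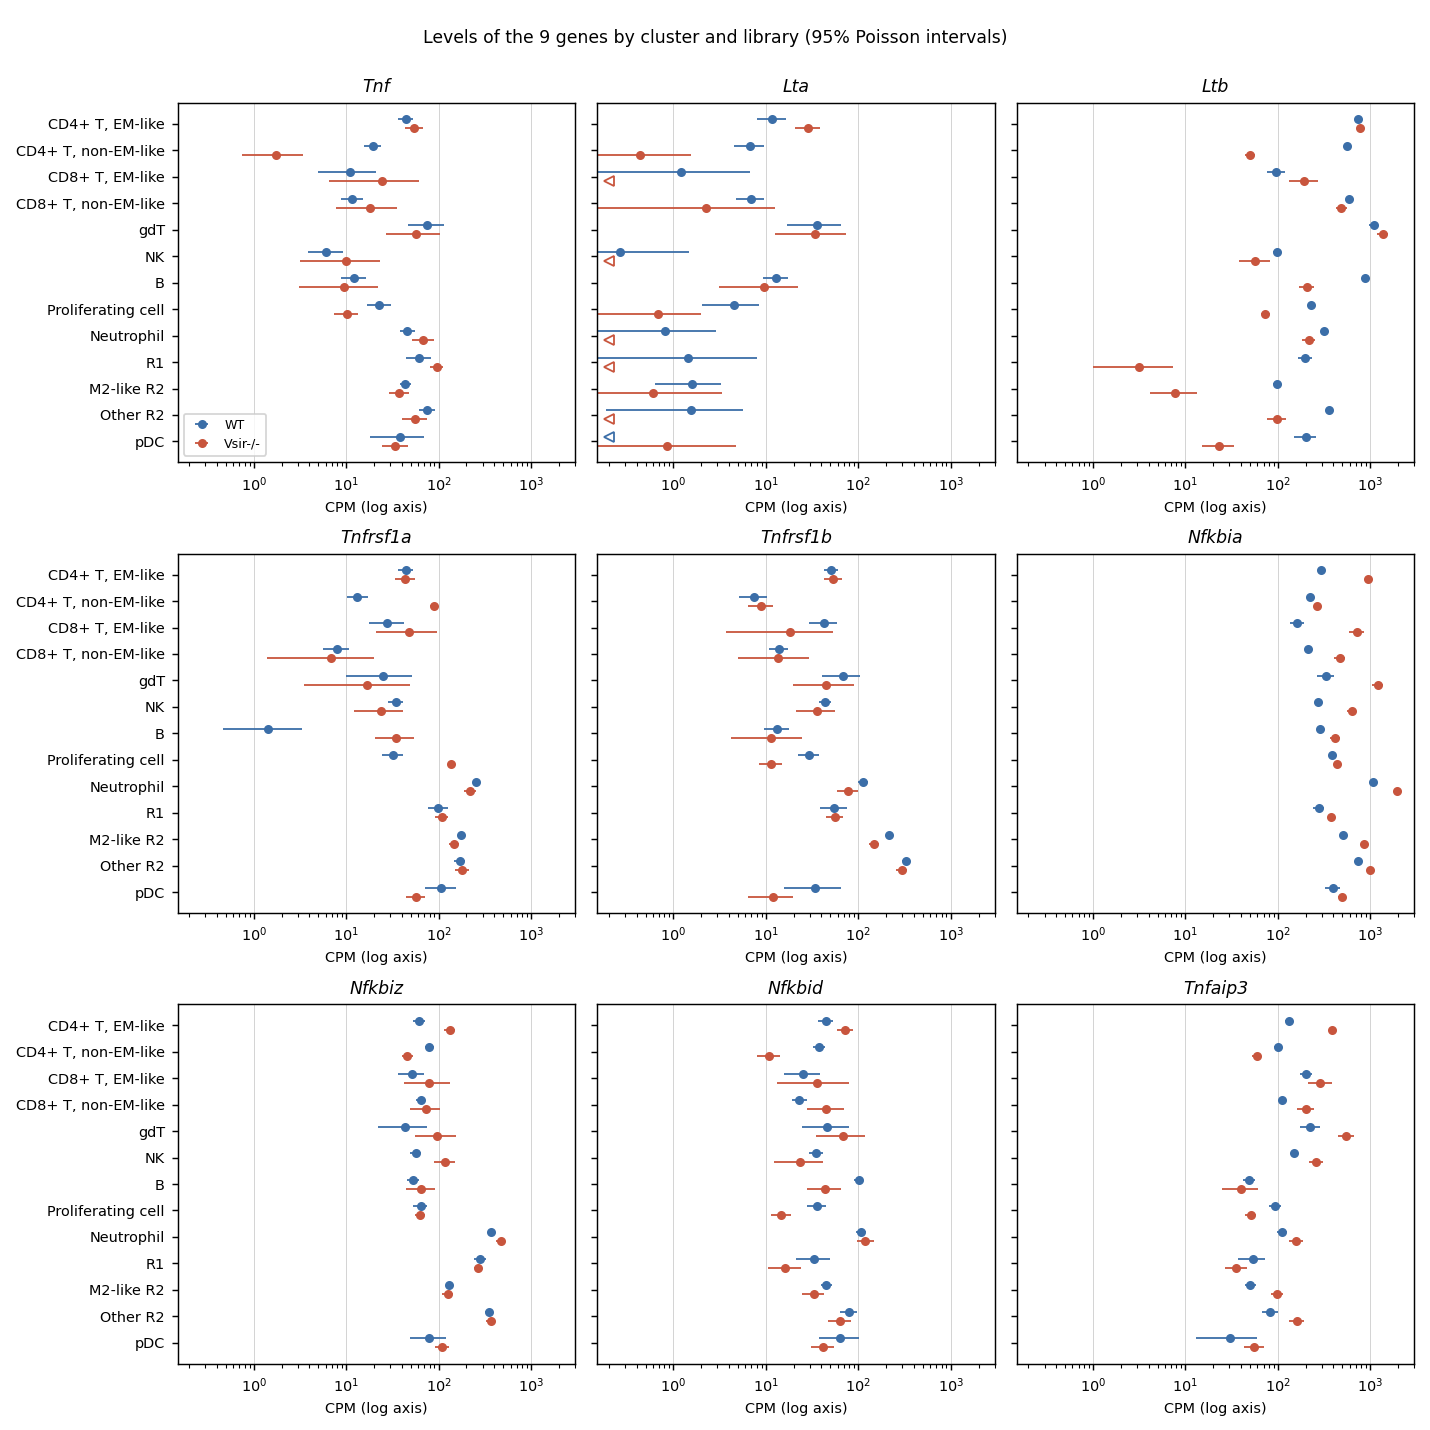
Level of each of the 9 genes in the 13 compared clusters (rows) in CPM on a log axis, with WT in blue and Vsir-/- in red. Bars are 95% Poisson intervals, cut at the left edge where they reach lower values, and open triangles at the left edge mark 0 UMIs. Nfkbia in Vsir-/- is to the right of WT in every cluster (in 11 of 13 when centred on the median gene), whereas Ltb is far to the left in R1, M2-like R2, and CD4+ non-EM-like cells.

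Across the clusters, the 9 genes did not move together. Nfkbia was higher in the Vsir-/- library in 13 of 13 clusters (11 when ratios were centred on the median gene of each cluster), Tnfaip3 and Nfkbiz in 9 each, and Tnfrsf1a in 6 of the 12 clusters in which it had at least 20 UMIs. By sign alone, Ltb, Tnfrsf1b, and Nfkbid were lower in 10, 10, and 8 of 13 clusters (11 for Tnfrsf1b when centred). Their ratio intervals lay below 0 in 10, 4, and 5 clusters and above 0 in 2, 0, and 2. The intervals of Tnfaip3 and Nfkbiz lay above 0 in 8 and 4 clusters and below 0 in 2 and 1. Counts of genes past a 2-fold ratio were read against all genes with at least 20 UMIs in the same cluster. In CD4+ EM-like T cells 4 of 9 genes were at least 2-fold higher, against 10.4% of all genes, and in gdT cells 3 of 7, against 5.98%. Among the 4 in CD4+ EM-like cells, Lta had 19 of its 45 Vsir-/- UMIs in 1 cell. Without the top cell of each library, its log2 ratio was 0.58, below 2-fold. In NK cells 2 of 8 genes were higher (all genes 9.86%), and in CD8+ EM-like T cells 2 of 7 were higher (6.03%) and 1 was lower (9.98%). The lower gene in CD8+ EM-like cells, Tnfrsf1b, had 3 UMIs in Vsir-/-. CD8+ non-EM-like T cells had 1 of 9 higher (11.1%) and 1 lower (9.66%). Of the genes with at least 20 UMIs, 9 in CD4+ EM-like, 7 in gdT, and 8 in NK cells, none was at least 2-fold lower. The shares of all genes were 5.41%, 6.6%, and 7.01%.

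In the myeloid clusters, the few genes past 2-fold were on the lower side, and no lineage pattern is read from such small counts. Ltb made up 4 of these calls, and Tnfrsf1b and Nfkbid 1 each. On the higher side, Tnfaip3 fell just short of 2-fold in M2-like R2 (log2 0.97) and other R2 cells (0.96). Neutrophils had none of 8 in either direction (all genes 9.99% higher and 10.6% lower). M2-like R2 and other R2 cells had 0 of 8 higher (8.11% and 6.71%) and 1 each lower (7.61% and 9.52%). R1 cells had 0 of 8 higher (13.6%) and 2 lower (8.78%), and plasmacytoid dendritic cells (pDC) had 0 of 8 higher (11.9%) and 2 lower (10.1%). The CD4+ non-EM-like, proliferating, and B cell clusters, where many Vsir-/- cells lacked T or B cell transcripts, stood apart. In the CD4+ non-EM-like cluster 1 of 9 genes was higher, where 47.8% of all genes were, and 4 were lower (10.7%), and in the proliferating cluster 1 of 8 was higher (37.5%) and 4 were lower (9.0%). The B cell cluster had 1 of 9 higher (16.3%) and 2 lower (15.9%). The median log2 ratio of all genes was 0.91 in the CD4+ non-EM-like and 0.51 in the proliferating cluster, and between -0.07 and 0.07 in the other 11.

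Tnf was present in both myeloid and T cells. Over all cells it had a similar level in both libraries, 27.5 CPM in the WT library and 28.3 CPM in the Vsir-/- library. The 25 WT basophils had the highest level, 151 CPM (95-229) from 22 UMIs, and basophils could not be compared because the Vsir-/- library held 2. In WT, other R2 cells followed with 74.9 CPM, then gdT cells with 74.8 and R1 cells with 61.9. NK cells were lowest at 6.12 CPM. Only 1 of the 15 neighbouring pairs in this order, basophils and other R2, had intervals that did not overlap.

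R1 macrophages, the cells with the highest Tnf in the Vsir-/- library, had 43 UMIs in 116 WT cells and 152 UMIs in 237 Vsir-/- cells. The levels were 61.9 CPM (44.8-83.3) in WT and 94.9 CPM (80.4-111) in Vsir-/-, a log2 ratio of 0.62 (0.12-1.14). Neutrophils had 45.9 CPM (37.9-55.2) in WT and 68.2 CPM (51.1-89.2) in Vsir-/-, a log2 ratio of 0.57 (0.07-1.05). Both were higher in the Vsir-/- library by less than 2-fold, with WT and Vsir-/- intervals that overlapped slightly. T and B cell transcripts summed to 1761 CPM in WT and 76.8 CPM in Vsir-/- R1 cells, and to 633 and 59.2 CPM in neutrophils. Their part in the Tnf ratios was not tested. M2-like R2 (43.7 and 37.6 CPM), other R2 (74.9 and 55.6), gdT (74.8 and 56.4), and CD4+ EM-like cells (43.9 and 54.5) differed by less than their counting error. Lower values were found in the CD4+ non-EM-like cluster, with 19.3 CPM in WT and 1.74 CPM in Vsir-/-, and in the proliferating cluster, with 22.9 and 10.1 CPM. In proliferating cells with a T cell transcript, Tnf had 23.3 CPM in WT and 22.2 CPM in Vsir-/-, so the ratio was near 1 in these cells. In CD4+ non-EM-like cells with a T cell transcript it had 19.3 and 4.92 CPM, the latter from 6 UMIs.

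Lta was the scarcest ligand gene, with 182 UMIs in the WT library and 66 in the Vsir-/- library, and it was found mainly in lymphocytes. The highest level was in gdT cells, 35.6 CPM (17.1-65.5) in WT and 33.9 CPM (12.4-73.7) in Vsir-/-, from 10 and 6 UMIs. Among CD4+ EM-like T cells there were 33 UMIs in WT and 45 in Vsir-/-, or 11.8 and 28.5 CPM. One Vsir-/- cell held 19 of these 45 UMIs, and without the top cell of each library the log2 ratio fell from 1.28 to 0.58. The CD4+ and CD8+ non-EM-like clusters had 30 and 35 UMIs in WT and 2 and 1 in Vsir-/-. B cells had 12.9 CPM in WT and 9.53 CPM in Vsir-/-. In 4 of the 5 myeloid clusters the Vsir-/- or the WT library had no Lta UMI, and M2-like R2 cells had 7 UMIs in WT and 1 in Vsir-/-.

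Ltb had the widest spread of ratios among the 9 genes, from -5.98 to 1.01 on the log2 scale. Lymphocytes had the highest levels. In gdT cells it had 1094 CPM (975-1223) in WT and 1360 CPM (1193-1543) in Vsir-/-, the highest level of either library. Group 2 innate lymphoid cells (ILC2) had 915 CPM in WT and 846 CPM in Vsir-/-, the latter from 19 cells. CD4+ EM-like T cells had 734 CPM (702-766) and 778 CPM (735-823), a log2 ratio of 0.08 (-0.02 to 0.19). CD8+ non-EM-like T cells had 595 and 484 CPM. The levels of these 4 clusters differed by less than 1.5-fold between the libraries. NK cells were lower in Vsir-/-, with 98.2 and 57.2 CPM, a log2 ratio of -0.78 (-1.38 to -0.23). CD8+ EM-like T cells were the only compared cluster past 2-fold on the higher side. They had 96.0 CPM (76.0-120) in WT and 193 CPM (132-272) in the 28 Vsir-/- cells. The latter came from 32 UMIs, and the log2 ratio was 1.01 (0.37-1.62). The mix of cells in this cluster also differed, with NK transcripts at 2448 and 398 CPM and Cd4 at 7.29 and 90.3 CPM. Its part in the Ltb ratio was not tested.

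B cells had a lower Ltb level in the Vsir-/- library, 884 CPM (853-916) in WT and 206 CPM (169-248) in Vsir-/-. The 43 Vsir-/- cells of this cluster with neither a T nor a B cell transcript held 1 Ltb UMI. Counting only cells with a B cell transcript gave 884 CPM in WT against 338 CPM (277-408) in Vsir-/-, so the gap narrowed and did not close. The CD4+ non-EM-like cluster had 557 and 50.03 CPM. Its 233 Vsir-/- cells without a T cell transcript had 2.37 CPM, whereas the 116 with one had 182 CPM (159-208), which was also below WT.

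R1 and M2-like R2 cells showed the largest Ltb differences of all clusters. R1 macrophages had 137 UMIs and 197 CPM (166-233) in WT, and 5 UMIs and 3.12 CPM (1.01-7.29) in Vsir-/-, all 5 of them in 1 cell. M2-like R2 cells had 97.4 CPM (88.4-107) in WT and 7.76 CPM (4.13-13.3) in Vsir-/-. Other R2 cells had 361 CPM (329-396) and 97.1 CPM (76.3-122), and pDC had 200 CPM (150-262) and 22.8 CPM (15.0-33.2). Neutrophils differed least, with 318 CPM (297-341) in WT and 215 CPM (184-250) in Vsir-/-. Lymphocyte transcripts moved in the same direction in these clusters. The 11 T and B cell genes summed to 1761 CPM in WT R1 cells and 76.8 CPM in Vsir-/- R1 cells, and to 1608 and 14.2 CPM in other R2 cells.

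Ltb was therefore also counted in cells that had no T or B cell transcript, a choice made after the values were seen. In R1 cells 5 UMIs remained in 44 WT cells, or 28.4 CPM (9.24-66.4), and 0 in 160 Vsir-/- cells, with an interval of 0-3.99 CPM. M2-like R2 cells then had 22.3 CPM (15.1-31.6) in WT and 5.80 CPM (2.50-11.4) in Vsir-/-, and the log2 ratio moved from -3.65 to -1.94. Other R2 cells kept 220 CPM (176-272) in WT and 94.3 CPM (73.0-120) in Vsir-/-, and neutrophils 278 CPM (250-308) and 211 CPM (179-248). Per 100 T and B cell UMIs, WT libraries had 11.2 Ltb UMIs in R1 cells, 14.9 in M2-like R2 cells, and 14.4 in B cells, but 50.3 in neutrophils and 22.5 in other R2 cells. In the Vsir-/- library, neutrophils had 363 and other R2 cells 682, but from only 46 and 11 T and B cell UMIs. In CPM, Ltb was lower in Vsir-/- than in WT in both clusters. The part of free RNA or of doublets in the Ltb of R1 and M2-like R2 cells was not tested. Other clusters were also compared by Ltb UMIs per 100 T and B cell UMIs. By this measure, WT other R2 cells were above B cells but below gdT cells (23.3) and ILC2 (85.8). WT neutrophils were above gdT cells but below ILC2. In Vsir-/-, neutrophils and other R2 cells were above B cells (9.22), gdT cells (31.1), and ILC2 (121), an order that rests on those few T and B cell UMIs. The pDC had 16.5 in WT and 54.0 in Vsir-/-, the latter from 50 T and B cell UMIs. The part of free RNA or of doublets was not tested in these clusters either.

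**Figure D2:**
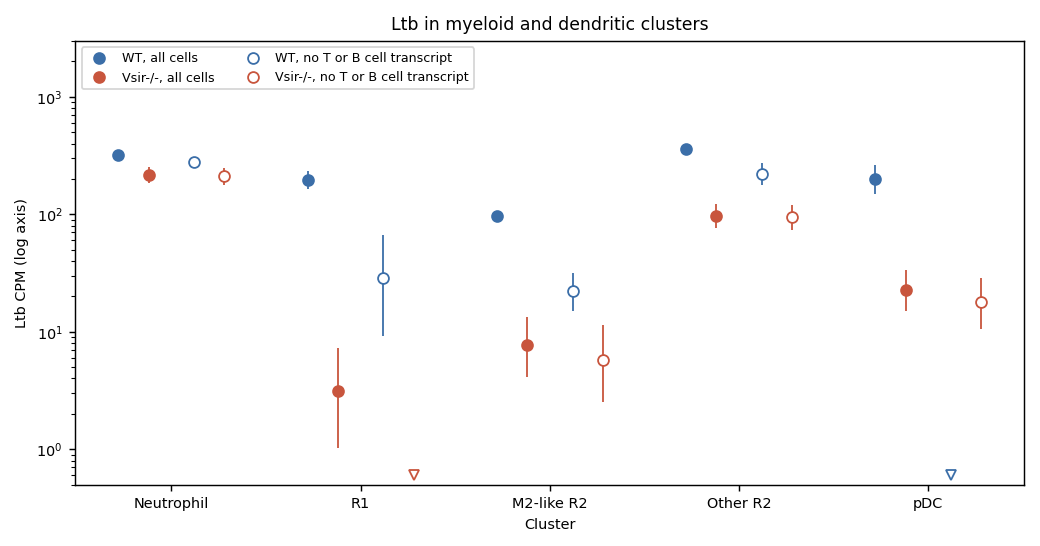
Ltb in 5 myeloid and dendritic clusters, in CPM on a log axis with 95% Poisson intervals, in all cells (filled) and in cells with no T or B cell transcript (open), for WT (blue) and Vsir-/- (red). Open triangles mark 0 UMIs, in 160 Vsir-/- R1 cells and in 5 WT pDC. The WT points of R1 and M2-like R2 cells drop to 28.4 and 22.3 CPM in the restricted cells, whereas those of neutrophils stay at 278 CPM.

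The receptor genes had distinct distributions. Tnfrsf1a was highest in neutrophils, with 256 CPM (236-276) in WT and 219 CPM (187-254) in Vsir-/-, a log2 ratio of -0.22 (-0.48 to 0.02). Other R2 cells had 169 and 179 CPM, M2-like R2 cells 174 and 148 CPM, and R1 cells 99.3 and 107 CPM. The myeloid levels thus lay within 1.5-fold of each other between the libraries, except in pDC, which had 106 CPM (70.3-153) in WT and 56.6 CPM (43.9-71.9) in Vsir-/-. Tnfrsf1b was highest in other R2 cells, at 327 CPM (297-360) in WT and 295 CPM (258-336) in Vsir-/-. M2-like R2 cells followed with 217 CPM (204-231) and 147 CPM (130-167), and neutrophils with 112 CPM (99.3-126) and 77.2 CPM (58.9-99.4). In both libraries the first and second clusters for Tnfrsf1b had intervals apart from each other and from the next cluster. CD4+ EM-like T cells had 50.7 and 53.9 CPM of Tnfrsf1b and 43.9 and 43.7 CPM of Tnfrsf1a, nearly the same in both libraries. Over all clusters, Tnfrsf1b was at least 2-fold lower in CD8+ EM-like T cells, proliferating cells, and pDC, and at least 2-fold higher in none. The CD8+ EM-like value rested on 3 Vsir-/- UMIs, with a log2 ratio of -1.23 (-3.58 to 0.43) that includes no difference. The pDC had 9 UMIs in WT and 14 in Vsir-/-.

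Tnfrsf1a was at least 2-fold higher in the Vsir-/- library in the CD4+ non-EM-like, proliferating, and B cell clusters. Many Vsir-/- cells of these clusters lacked T or B cell transcripts, as given above. The gene was past 2-fold higher in no other cluster. Tnfrsf1a had 13.2 CPM (10.1-17.1) in WT and 88.7 CPM (80.3-97.8) in Vsir-/- CD4+ non-EM-like cells, a log2 ratio of 2.74. Proliferating cells had 31.8 CPM (24.5-40.6) and 136 CPM (125-147), and B cells had 1.44 CPM from 5 UMIs and 34.3 CPM (20.3-54.2) from 18. In the B cell cluster, 15 of these 18 UMIs were in the 43 Vsir-/- cells with neither a T nor a B cell transcript. In the CD4+ non-EM-like cluster, by contrast, the Vsir-/- level was 92.3 CPM (82.4-103) in cells without a T cell transcript and 78.7 CPM (63.8-96.2) in cells with one. The log2 ratio was still 2.57 when only cells with a T cell transcript were compared. Tubule transcripts reached 12957 CPM in this Vsir-/- cluster and 6885 CPM in the Vsir-/- proliferating cluster, and their part in the receptor level was not tested.

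**Figure D3:**
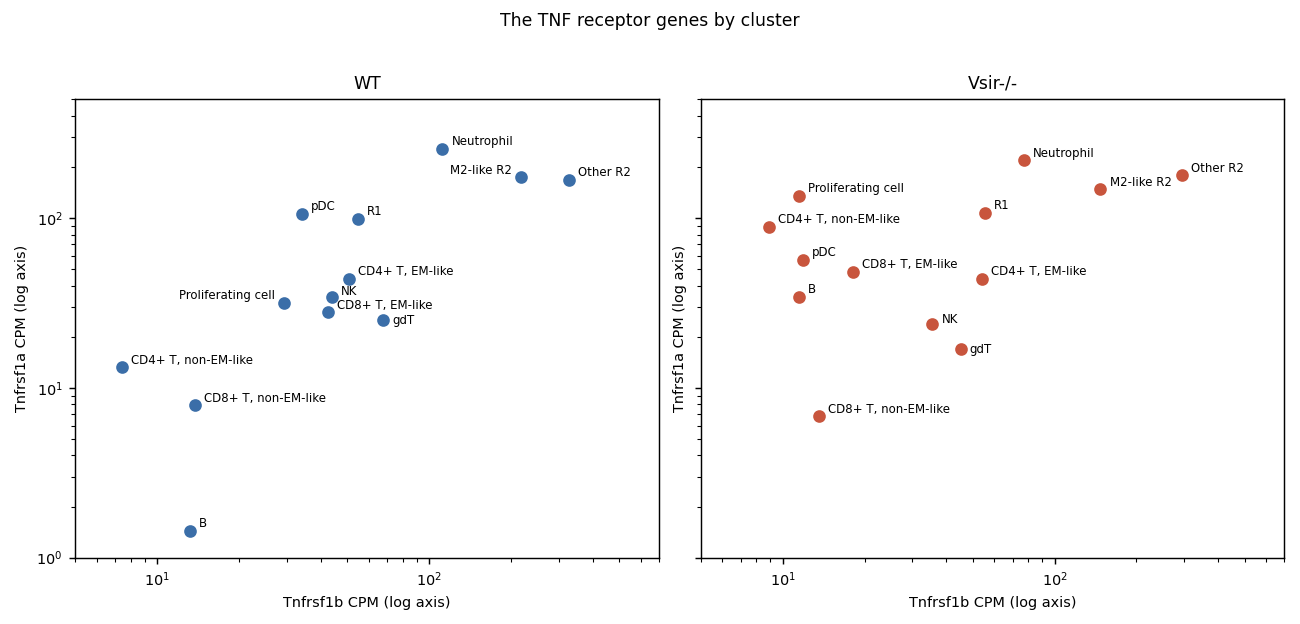
Tnfrsf1a (vertical) against Tnfrsf1b (horizontal), both in CPM on log axes, with 1 point for each of the 13 compared clusters in WT (left) and Vsir-/- (right). Neutrophils are highest for Tnfrsf1a and other R2 cells for Tnfrsf1b in both libraries, and the proliferating, CD4+ non-EM-like, and B cell clusters lie higher on the Tnfrsf1a axis in Vsir-/-.

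Nfkbia, the gene of IκBα, was higher in the Vsir-/- library in every compared cluster by CPM, or in 11 of 13 when centred on the median gene, and was past 2-fold in 5 clusters of T and NK cells. Over all cells, it had 391 CPM in WT and 587 CPM in Vsir-/-. CD8+ EM-like T cells had 162 CPM (135-191) from 197 WT cells and 711 CPM (588-851) from 28 Vsir-/- cells, a log2 ratio of 2.14 (1.77-2.51). gdT cells had 331 CPM (268-406) and 1207 CPM (1051-1380), a log2 ratio of 1.87 (1.51-2.23). CD4+ EM-like T cells had 292 CPM (272-313) and 937 CPM (890-986), a log2 ratio of 1.68 (1.56-1.81). In these T cells the WT and Vsir-/- intervals were far apart. Because the EM-like clusters were mixed, Nfkbia was also summed by Cd4 and Cd8 UMIs, a choice made after the values were seen. In the CD4+ EM-like cluster, cells with a Cd4 and no Cd8 UMI had 287 CPM (245-333) in WT and 1171 CPM (1080-1268) in Vsir-/-, and cells with a Cd8 and no Cd4 UMI had 279 CPM (241-323) and 648 CPM (559-748). In the CD8+ EM-like cluster, the 102 WT and 15 Vsir-/- cells with a Cd8 and no Cd4 UMI had 176 CPM (140-219) and 716 CPM (548-920). Leaving out cells with an NK transcript gave log2 ratios of 1.73 in the CD4+ and 2.23 in the CD8+ EM-like cluster, the latter from 8 WT and 14 Vsir-/- cells. NK cells (270 and 633 CPM) and CD8+ non-EM-like T cells (212 and 468 CPM) were also past 2-fold.

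Neutrophils and infiltrating macrophages had the highest Nfkbia levels of the compared WT clusters, and their ratios were below 2-fold. Neutrophils had 1080 CPM (1039-1121) in WT and 1921 CPM (1825-2021) in Vsir-/-, a log2 ratio of 0.83 (0.74-0.92). M2-like R2 cells had 512 CPM (491-533) and 857 CPM (813-903), other R2 cells 741 and 989 CPM, R1 cells 276 and 376 CPM, and pDC 393 and 492 CPM. The smallest ratio was in the proliferating cluster (384 and 437 CPM, log2 0.19), and the CD4+ non-EM-like cluster had 226 and 268 CPM. Those 2 clusters turned negative, at -0.33 and -0.66, when ratios were centred on the median gene of the cluster. In their cells with a T cell transcript, Nfkbia had 387 and 571 CPM in the proliferating cluster and 226 and 532 CPM in the CD4+ non-EM-like cluster. WT basophils had 1843 CPM, and ILC2 had 991 CPM in WT and 2056 CPM in Vsir-/-.

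Tnfaip3 was also higher in T and NK cells of the Vsir-/- library. For CD4+ EM-like T cells the levels were 132 CPM (119-147) for WT and 384 CPM (354-415) for Vsir-/-, a log2 ratio of 1.53 (1.35-1.72). gdT cells had 224 CPM (173-287) and 553 CPM (449-674), a log2 ratio of 1.30 (0.83-1.78). NK cells had 151 and 260 CPM, and CD8+ non-EM-like T cells 111 and 201 CPM. CD8+ EM-like T cells had 203 and 289 CPM, a log2 ratio of 0.51 (0.016-0.98). Leaving out cells with an NK transcript, as for Nfkbia, gave log2 ratios of 0.03 in the CD8+ and 1.52 in the CD4+ EM-like cluster. The value of 0.03 rested on the few CD8+ EM-like cells without an NK transcript given above. B cells were at 49.1 and 40.03 CPM. Infiltrating macrophages came close to 2-fold, with 50.3 and 98.5 CPM in M2-like R2 cells (log2 0.97, 0.67-1.27) and 82.7 and 160 CPM in other R2 cells (0.96, 0.57-1.34). Resident macrophages did not share this, with 53.2 CPM (37.5-73.4) in WT R1 cells and 35.6 CPM (27.0-46.1) in Vsir-/- R1 cells. Proliferating and CD4+ non-EM-like clusters had lower Tnfaip3 in Vsir-/- (94.0 and 50.8 CPM, and 100 and 58.9 CPM). In their cells with a T cell transcript the direction was the opposite, with 94.6 and 119 CPM and with 100 and 197 CPM.

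Nfkbiz was highest in neutrophils, other R2, and R1 cells among the compared clusters, and it differed little between the libraries there. Neutrophils had 369 CPM (345-393) in WT and 468 CPM (422-519) in Vsir-/-, other R2 cells 348 and 366 CPM, R1 cells 281 and 267 CPM, and M2-like R2 cells 131 and 125 CPM. T and NK cells had lower levels, and 3 of their clusters were past 2-fold. CD4+ EM-like T cells had 61.4 CPM (52.5-71.3) and 131 CPM (114-150), a log2 ratio of 1.10, and NK cells had 56.7 CPM (49.3-64.8) and 116 CPM (88.6-150), a log2 ratio of 1.04. gdT cells had 42.8 and 95.9 CPM, from 12 and 17 UMIs. WT basophils were highest with 873 CPM, apart from the next cluster.

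Nfkbid was the only one of the 4 inhibitor and regulator genes that was at least 2-fold lower in some clusters and at least 2-fold higher in none. B cells had 101 CPM (91.1-113) in WT and 43.8 CPM (27.8-65.8) in Vsir-/-, and R1 cells had 33.1 CPM (21.0-49.7) and 16.2 CPM (10.6-23.8). A B cell transcript was present in only 51.1% of Vsir-/- cells of the B cell cluster. The R1 values came from 23 and 26 UMIs. B cell transcripts in R1 cells summed to 1187 CPM in WT and 56.2 CPM in Vsir-/-, and their part in the Nfkbid levels was not tested. The CD4+ non-EM-like cluster had 37.7 and 10.9 CPM, and the proliferating cluster 35.8 and 14.6 CPM. In cells of these clusters with a T cell transcript, the levels were closer, at 37.7 and 28.7 CPM and at 36.4 and 34.0 CPM. On the higher side were CD8+ non-EM-like T cells, with 23.1 and 45.2 CPM, a log2 ratio of 0.97 (0.21-1.66). CD4+ EM-like T cells had 44.2 and 72.3 CPM, a log2 ratio of 0.71 (0.33-1.09). Neutrophils (106 and 120 CPM), gdT (46.3 and 67.7), and CD8+ EM-like T cells (25.5 and 36.1) were also higher. The ratio intervals of these last clusters included no difference.

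**Figure D4:**
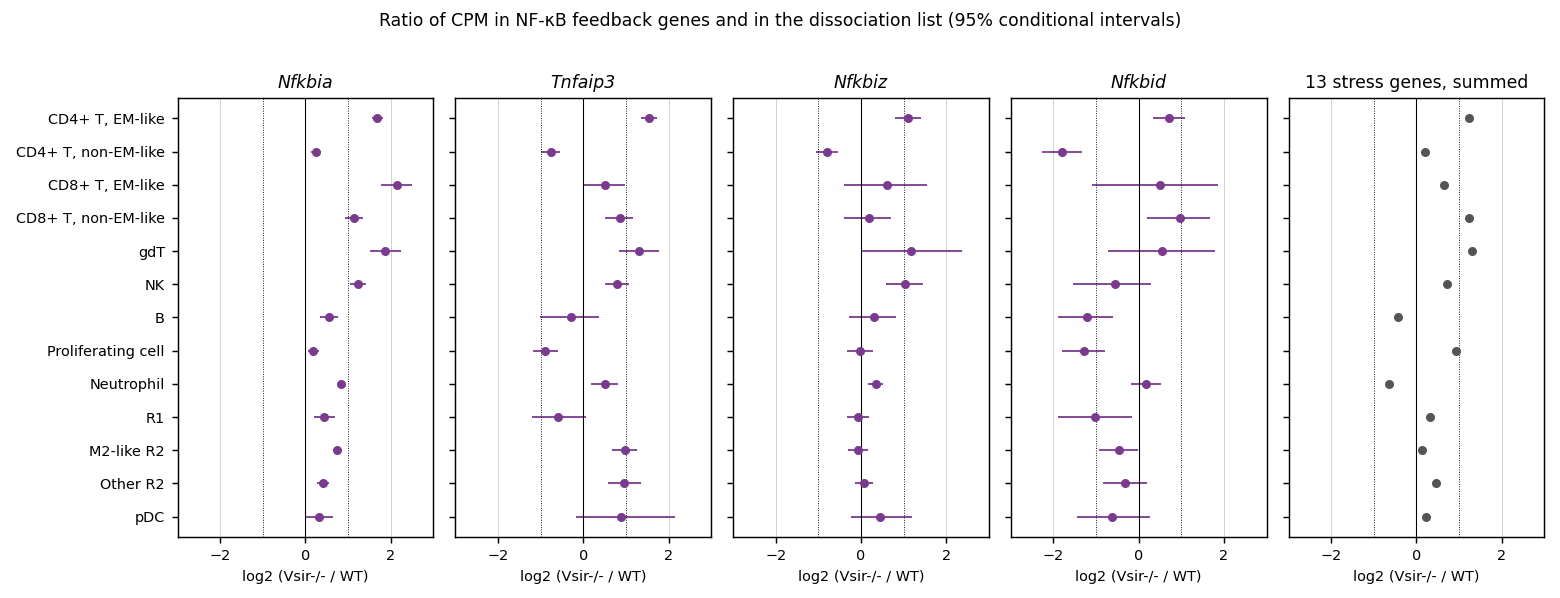
Log2 ratio of CPM (Vsir-/- over WT) in the 13 compared clusters for Nfkbia, Tnfaip3, Nfkbiz, and Nfkbid, and for the sum of 13 genes that are induced by tissue dissociation. Bars are 95% exact conditional intervals, the solid line marks no difference, and dotted lines mark 2-fold. Nfkbia lies above 0 in all clusters (11 of 13 when centred on the median gene). The dissociation list lies below 0 in neutrophils and B cells, and below the median of all genes in CD4+ non-EM-like cells as well.

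Tissue dissociation is known to induce NF-κB feedback genes along with immediate early genes, so a list of 13 such genes (Fos, Jun, Egr1, Hspa1a, and others) was measured beside the inhibitors. The list was higher in Vsir-/- in 11 of 13 clusters by CPM, without centring. In the CD4+ non-EM-like cluster its log2 ratio was 0.21, below the median of all genes there (0.91). CD4+ EM-like T cells had 5348 and 12603 CPM of it, gdT cells 6029 and 14821 CPM, NK cells 5130 and 8387 CPM, and CD8+ EM-like T cells 5262 and 8269 CPM. CD8+ non-EM-like T cells had 3045 and 7100 CPM. In these clusters of T and NK cells, Nfkbia and the list were both higher in Vsir-/-. In neutrophils the list had 10626 CPM in WT and 6754 CPM in Vsir-/-, and in B cells 8334 and 6168 CPM. Nfkbia was higher in Vsir-/- in both (log2 0.83 and 0.55). Within B cells the listed genes went both ways, with Jund at 2549 and 1487 CPM but Hspa1a at 183 and 362 CPM. The same held in other clusters. Neutrophils had Fos at 1663 and 1001 CPM but Atf3 at 126 and 158 CPM. CD8+ EM-like T cells had Btg2 at 824 and 500 CPM but Hspa1a at 98.4 and 1132 CPM. Of the Vsir-/- cells in the B cell cluster, 51.1% had a B cell transcript. The part of dissociation in the Nfkbia and Tnfaip3 levels of T and NK cells was not tested.

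Detection of the feedback genes was also compared within cells. After every cell had been thinned to 1000 UMIs, a Nfkbia UMI was present in 43 of 50 WT neutrophils that had a Tnfaip3 UMI, or 86.0%, and in 47.5% of those without. In Vsir-/- neutrophils, the corresponding shares were 25 of 27, or 92.6%, and 49.2%. The same comparison in other R2 cells gave 55.0% and 47.5% in WT and 58.8% and 60.9% in Vsir-/-. CD4+ EM-like T cells had 25.9% and 19.5% in WT and 56.0% and 40.4% in Vsir-/-. CD8+ non-EM-like T cells had 28.6% and 15.6% in WT and 25.0% and 30.4% in Vsir-/-, where only 4 cells had a Tnfaip3 UMI.

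The rest of the pathway was described with a list of 53 genes, all of them present in the matrix. In CD4+ EM-like T cells 4 of 50 tested were at least 2-fold higher, a share below that of all genes (10.4%). None was lower there (all genes 5.41%). Gadd45b, a stress-induced NF-κB target, had 107 and 294 CPM, and Traf1, an adaptor and NF-κB target, had 118 and 243 CPM. In gdT cells 8 of 27 were higher and 1 was lower, and Zfp36, which promotes decay of Tnf mRNA, had 257 CPM in WT and 858 CPM in Vsir-/-. In NK cells 6 of 47 were higher and 3 lower (all genes 9.86% and 7.01%), with the chemokine gene Ccl3 at 626 and 1345 CPM. The median log2 ratio of the list was 0.20 in CD4+ EM-like and 0.28 in gdT cells, and that of all genes was near 0 in both. Of the 5 NF-κB subunit genes, 3 were at least 2-fold higher in gdT cells and none in CD4+ EM-like cells. The shares of all genes past 2-fold in gdT cells were those given above, 5.98% on the higher and 6.6% on the lower side.

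In macrophages and neutrophils, few genes of the pathway list were past 2-fold, and no difference from all genes is read from these counts. In M2-like R2 cells 4 of 52 genes were higher (all genes 8.11%) and 1 was lower (7.61%). Cxcl2, a neutrophil-attracting chemokine, had 321 CPM in WT and 794 CPM in Vsir-/-, Sod2 (mitochondrial superoxide dismutase) had 110 and 286 CPM, Bcl2a1b (an inhibitor of apoptosis) had 51.7 and 226 CPM, and Tnip3 (a partner of A20) had 16.8 and 50.1 CPM. In other R2 cells 2 of 50 were higher (all genes 6.71%), Cxcl2 with 210 and 633 CPM and Tnfaip2 with 211 and 532 CPM. There, 4 were lower (9.52%), among them Ier3 with 169 and 81.5 CPM. R1 cells had 2 of 48 higher (all genes 13.6%) and 3 lower (8.78%), with the ubiquitin ligase gene Birc3 at 92.1 and 39.3 CPM. Neutrophils had 2 of 49 in each direction (all genes 9.99% higher and 10.6% lower), and Sod2 was higher with 51.2 and 122 CPM. In the CD4+ non-EM-like cluster 10 of 50 pathway genes were higher, where 47.8% of all genes were, and 8 were lower (10.7%), and the lymphotoxin beta receptor gene Ltbr had 1 UMI in WT and 196 in Vsir-/-.

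The genes most like each of the 9 were listed by Pearson's r of log2(CPM + 10) over 29 profiles of a cluster in a library, among 8785 genes. The profiles of 1 library share its depth and its free RNA, so r is a description. Nfkbia was most like Ifrd1 (r = 0.89), Csrnp1 (0.87), and Gadd45b (0.85), and Tnfaip3 was most like Socs1 (0.84), which restrains cytokine signaling. Nfkbiz was most like Lilr4b (0.87), Nfkbid like Sik1 (0.79), Tnf like Hk2, Plk3, and Rgs2 (0.74 each), and Lta like Il17a (0.83). Ltb was most like Rcsd1 (0.81), Tnfrsf1a like Ifitm3 (0.88), and Tnfrsf1b like Ap1s2 (0.87). Among the 9 genes themselves, the highest correlations were between Nfkbia and Nfkbiz (0.75), between Lta and Ltb (0.71), and between Tnf and Nfkbiz (0.66).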

How the data were processed

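The authors processed the reads of both libraries with Cell Ranger (version 3.1.0) and merged and clustered the cells in Seurat (version 3.2.3) with R (version 4.0.3); the submitters' processing notes name mm9. The deposited table is a sparse matrix of raw UMI counts, and a second table names each cell's library and cluster. The deposited percent of mitochondrial UMIs was at most 10% in every cell and served for an alternative limit of 5%, and every cell had at least 501 UMIs. The authors' score coordinates of the embedding were not used. No removal of doublets is stated, and no caller was run here.

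Sums of UMIs were made for each cluster in each library, and CPM, exact Poisson intervals, and exact conditional intervals of ratios were computed at the 95% level. Depth was 32799550 UMIs in WT and 18601189 in Vsir-/-, and a count of 0 has the upper bound of its two-sided interval. With 1 library per genotype, no p-value was computed. Genes were counted past a fold of 2 with 0.5 UMIs added, among genes with at least 20 UMIs in a cluster. Neighbours in an order of levels were called apart where the exact conditional interval of their log2 ratio lay above 0. The genes named are the 9 genes, pathway genes past 2-fold that had 100 or more UMIs in a cluster, and up to 3 genes most like each of the 9. The 9 genes, the marker lists, and the pathway list were chosen with earlier results of these data known. Alternatives changed the cells kept, the depth (1000 UMIs per cell, seed 17), the denominator, the scaling, the weighting, the filter, and the fold. The ratio and its interval were tested on simulated counts. Promoters came from RefSeq by symbol. Python 3.11.15, numpy 2.4.6, scipy 1.17.1, pandas 2.3.3, and matplotlib 3.10.9 were used.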

Additional observations from a re-analysis of the deposited data

Results flagged for a closer look

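Ltb and Lta had ratios of opposite direction in different clusters. On the log2 scale of Vsir-/- over WT, Ltb had 1.01 in CD8+ EM-like T cells, but -2.10 in B cells, -3.48 in CD4+ non-EM-like cells, -1.65 in proliferating cells, -5.98 in R1, -3.65 in M2-like R2, -1.90 in other R2, and -3.13 in pDC. The value of 1.01 rested on 32 Vsir-/- UMIs, in a cluster whose NK and Cd4 transcripts differed between the libraries. Lta had 1.28 in the CD4+ EM-like cluster, against -3.95 in the CD4+ and -1.61 in the CD8+ non-EM-like cluster, the last from 1 Vsir-/- UMI. Without the top cell of each library, the CD4+ EM-like value was 0.58. The CD4+ non-EM-like value rested on 2 Vsir-/- UMIs, in a cluster where 33.2% of Vsir-/- cells had a T cell transcript. The difference between clusters was not tested, because each genotype has 1 library.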

How the results depend on the processing

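The ratio of each gene in its highest cluster was recomputed under up to 8 settings, and 62 of the 66 values stayed within the counting interval of the reported value. Thinning to 1000 UMIs per cell moved Tnfrsf1a in neutrophils from -0.22 to -0.64 and Ltb in gdT cells from 0.31 to 0.68 (log2). Giving every cell equal weight moved Nfkbia in neutrophils from 0.83 to 0.59 and Nfkbiz in neutrophils from 0.35 to -0.011. Over all clusters, genes, and settings, 671 of 802 values stayed within their interval and 130 moved out of it. A single value that had been past 2-fold changed its direction, Tnf in proliferating cells, which went from -1.18 to 0.13 when only cells with a Ptprc UMI (the CD45 transcript) were kept. Nfkbia stayed above 0 in all 13 clusters in 5 of the 7 alternatives that covered all of them. It was negative in the CD4+ non-EM-like cluster with the denominator that leaves out mitochondrial, ribosomal, tubule, and dissociation genes (-0.27), and in 2 clusters after centring on the median gene. Pathway genes at least 2-fold higher summed to 74 over the 13 clusters and those lower to 42. Of all genes, 5.98% (gdT) to 47.8% (CD4+ non-EM-like) of a cluster were at least 2-fold higher. On the lower side, the range was 5.41% (CD4+ EM-like) to 15.9% (B cells). No shift is read from the sums, which were not set against a sum over all genes. With at least 100 UMIs the pathway sums were 43 and 25, and with a fold of 1.5 they were 130 and 104. The cause of these changes was not tested, apart from the fewer or more genes counted by the last pair. Ltb ratios among cells without T or B cell transcripts, added after seeing the data, were -0.39 in neutrophils, -1.94 in M2-like R2, and -1.22 in other R2, and -1.36 in B cells with a B and no T cell transcript, while R1 and pDC gave no ratio because 1 library had 0 UMIs. In the CD4+ EM-like cluster, cells with a Cd8 and no Cd4 UMI, also added then, had ratios of 1.21 for Nfkbia, 1.23 for Tnfaip3, and 0.27 for Nfkbiz, and those with a Cd4 and no Cd8 UMI 2.03, 1.76, and 1.35. No paired analysis was possible because each genotype has 1 library. Depth limits the small clusters most, since 1 UMI in the 28 Vsir-/- gdT or CD8+ EM-like cells is worth more than in any larger cluster.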
